A study of Mus musculus with 32 samples.

Results

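The 7 genes described here take a muscle stem cell to a fused fibre, and they were measured in wild-type (WT) and Col6a2-/- mouse quadriceps, at 5 and 25 weeks of age and in both sexes. They are the satellite cell factor Pax7, the 4 myogenic regulatory factors Myf5, Myod1, Myog and Myf6, and the membrane fusion genes Mymk (myomaker, formerly Tmem8c) and Mymx (myomixer, also called myomerger or minion). They were chosen by name, and all 7 were found among the 53801 gene IDs of the tables. Col6a2 encodes the alpha2 chain of collagen VI, a microfibrillar protein of the muscle matrix whose loss causes muscle disease. Each of the 8 groups held 4 mice with 1 library per mouse, 32 libraries in all, made from snap-frozen cryosections of whole muscle. Knockout animals were homozygous for the Col6a2 tm1(KOMP)Vlcg allele, which is present in every cell of the body. The strain came from C57BL/6N stock and had been crossed for 5 generations to C57BL/6J, and the WT animals came from the same heterozygous breeders.

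Adult muscle keeps a reserve of satellite cells that lie beneath the basal lamina of each fibre and are marked by Pax7. When these cells are activated they use Myf5 and Myod1 to enter the muscle lineage, then Myog to leave the cell cycle and differentiate, and finally Mymk and Mymx to merge their membranes with one another or with a fibre. Myf6 is mainly a gene of the mature fibre, and Myog can also be switched on in existing fibres that have lost their nerve supply. In a bulk library of whole muscle, fewer cells of a type and less RNA per cell cannot be told apart.

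On build GRCm38, the coordinates of all 7 genes in the tables are those of the GENCODE M21 annotation, and no gene overlaps another. Pax7 (ENSMUSG00000028736) lies on chromosome 4 from 139737062 to 139833528 on the minus strand. Myf5 (ENSMUSG00000000435, 107482908 to 107486134) and Myf6 (ENSMUSG00000035923, 107492853 to 107494737) are neighbours on the minus strand of chromosome 10, with 6718 bases between them. Myod1 (ENSMUSG00000009471) runs from 46376474 to 46379099 on the plus strand of chromosome 7, and Myog (ENSMUSG00000026459) from 134289989 to 134292548 on the plus strand of chromosome 1. Mymk (ENSMUSG00000009214) spans 27061636 to 27072179 on the minus strand of chromosome 2, and Mymx (ENSMUSG00000079471) 45600971 to 45602102 on the minus strand of chromosome 17.

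The sequences of 2 members are shown. The first is the promoter window of Myog, a gene whose product belongs to the family that binds E-boxes, because its transcript moved with the fusion genes. It holds the 250 bases before the RefSeq start (GRCm38.p6, chr1:134289754-134290003, plus strand, 15 of them inside the GENCODE gene), and capitals mark each match to the E-box letters CANNTG, a palindromic motif that reads alike on both strands. The second is the coding sequence of Mymx, the gene with the largest difference between genotypes at 5 weeks. It is shown on the minus strand from 45601671 down to 45601417 of chromosome 17, 255 bases that encode 84 residues, with the start and stop codons in capitals.
Myog promoter: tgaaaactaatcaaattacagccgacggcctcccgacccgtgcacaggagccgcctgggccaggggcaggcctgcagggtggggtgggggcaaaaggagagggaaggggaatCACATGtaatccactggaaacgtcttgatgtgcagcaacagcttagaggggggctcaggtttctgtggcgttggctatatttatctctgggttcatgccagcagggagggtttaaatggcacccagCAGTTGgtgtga
Mymx coding sequence: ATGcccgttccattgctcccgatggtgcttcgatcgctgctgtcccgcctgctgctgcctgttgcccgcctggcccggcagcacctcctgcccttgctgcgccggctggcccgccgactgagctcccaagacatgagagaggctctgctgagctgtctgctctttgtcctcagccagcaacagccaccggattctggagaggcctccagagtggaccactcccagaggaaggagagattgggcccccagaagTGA
The Myog window held 2 E-boxes, CACATG at -138 to -133 and CAGTTG at -12 to -7 from the RefSeq start. Of 32851 mouse promoter windows of the same length, 66.2% held at least 1 such match and 31.8% at least 2, so the letters alone are common. The Mymx coding sequence shown is shared by 3 of the 4 annotated coding transcripts, and the remaining transcript carries a longer reading frame.

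The genotype labels were checked with Col6a2 itself, which ran from 6.60 to 51.2 TPM in WT libraries and from 0 to 0.171 TPM in Col6a2-/- libraries, with no overlap. TPM, the unit of the deposited tables, is scaled for transcript length and library total, so levels can be set against each other between genes. Relative depth ran from 6.78 to 13.69 gigabases, with a median of 8.95, on a scale inferred from the ratio of coverage to FPKM. Genes outside the mitochondrial genome and the Rn7s RNAs took 28.4% to 44.2% of the summed TPM. Library totals can therefore shift the value of every other gene. The defining transcripts of mature muscle fibres, such as Acta1 and Ckm, were abundant in all libraries, with 24547 to 42542 TPM summed over 9 markers.

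Of the 7 genes, 6 were higher in Col6a2-/- than in WT muscle at 5 weeks, and none passed the test at 25 weeks. Mymx rose most, followed by Mymk, Myog and Myod1, and Myf5 and Myf6 rose by less, whereas Pax7 did not pass. Changes are given as Col6a2-/- minus WT on the log2(TPM + 1) scale, which understates the change of low genes, with the standard error (SE) and the Benjamini-Hochberg adjusted p from limma fitted across all genes. A gene is called where that p is under 0.05. The share of all genes called at 5 weeks was 25.4% of the 12817 genes that passed a filter (a TPM of 1 or more in 4 or more libraries), and 11.2% of the 32958 genes in a fit without that filter. Mymk and Mymx met the filter only through the 5-week Col6a2-/- libraries, Myf5 with 7 libraries, mostly of those groups, and Pax7 did not meet it, so the count of 6 of 7 was also taken from the fit without the filter, where it was the same. The median change of all genes at 5 weeks was 0.15, and 91.6% of the called genes were higher. With median-of-ratios size factors that median was -0.01 and 46.7% of the called genes were higher, and with quantile normalisation 47.0%. Relative to the median of all genes, the changes were 3.34 for Mymx, 1.70 for Mymk, 1.51 for Myog, 0.44 for Myod1, 0.23 for Myf6 and 0.11 for Myf5. Pax7 changed by -0.05 relative to the median of 0.02 in its own fit, without the filter.

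**Figure D1:**
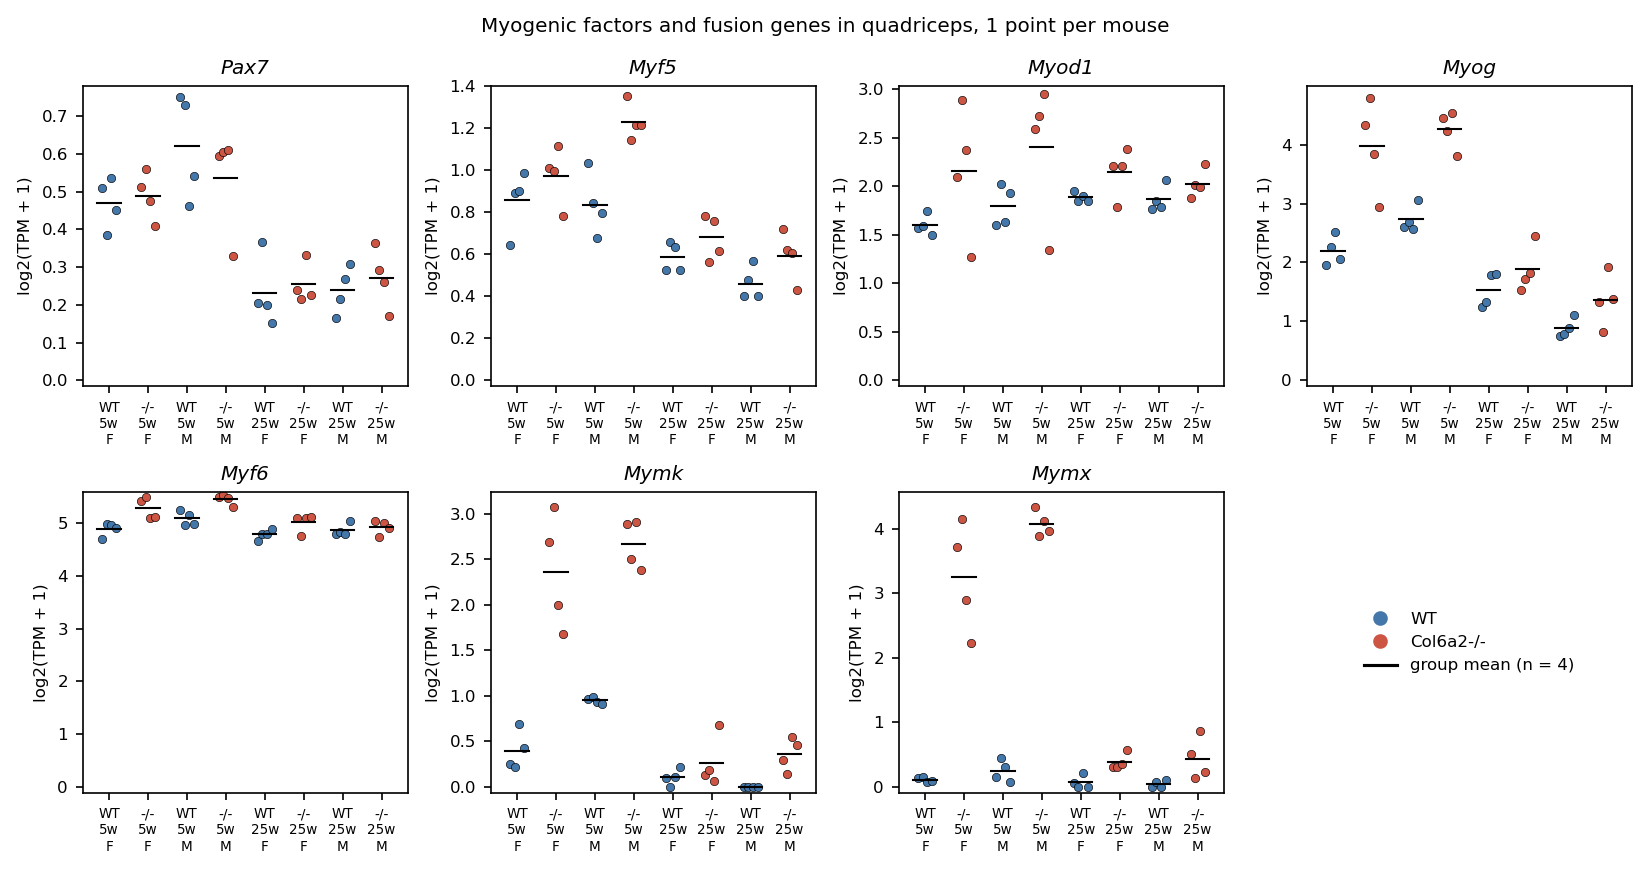
Level of each gene in every library, as log2(TPM + 1), by genotype, age (5 or 25 weeks) and sex (F or M). Each point is 1 mouse and each bar the mean of 4; the vertical axes differ between panels. Col6a2-/- libraries at 5 weeks stand above all WT libraries for Mymk and Mymx, and the points of Pax7 overlap.

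Pax7, the factor that marks satellite cells, was low in every library. At 5 weeks the 8 WT libraries ran from 0.306 to 0.682 TPM with a median of 0.437, and the 8 Col6a2-/- libraries from 0.257 to 0.526 TPM with a median of 0.450. The 2 genotypes overlapped throughout, and no Col6a2-/- library exceeded the highest WT library. The change was -0.03 with a 95% interval of -0.13 to 0.06 (adjusted p = 0.722 by limma without the filter). Quantile normalisation called Pax7 lower in Col6a2-/- (-0.13, adjusted p = 0.0354 by limma). At 25 weeks the libraries ran from 0.111 to 0.290 TPM in WT and from 0.126 to 0.287 TPM in Col6a2-/-, a difference of 0.03 with an interval of -0.07 to 0.12 that did not pass (adjusted p = 0.908).

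Myf5, an early determination factor, was also low and rose by a small amount. The WT females at 5 weeks had 0.562, 0.857, 0.870 and 0.985 TPM, and the WT males 1.05, 0.794, 0.598 and 0.737 TPM. In Col6a2-/- muscle the females had 1.01, 0.994, 1.17 and 0.718 TPM, and the males 1.56, 1.21, 1.32 and 1.32 TPM. All 4 knockout males lay above all 4 WT males, while the females overlapped through replicate 4. Group means over both sexes were 0.806 ± 0.171 TPM in WT and 1.16 ± 0.255 TPM in Col6a2-/- (SD, n = 8), a ratio of 1.44. The change was 0.26 (SE 0.0666, adjusted p = 0.00604 by limma). It lost its call with median-of-ratios size factors (0.15, adjusted p = 0.0649) and with quantile normalisation (0.10, adjusted p = 0.266).

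Myod1, the other determination factor, varied widely among the knockout libraries. The 5-week WT females had 1.96, 1.999, 2.36 and 1.82 TPM, and the WT males 2.03, 3.07, 2.10 and 2.82 TPM. The Col6a2-/- females had 3.28, 6.40, 4.18 and 1.42 TPM, and the males 5.00, 5.61, 6.72 and 1.54 TPM. In each sex 3 knockout libraries lay above every WT library, and replicate 4 lay below every WT library. The means were 2.27 ± 0.449 TPM in WT and 4.27 ± 2.05 TPM in Col6a2-/- (SD, n = 8), and the change was 0.58 (SE 0.177, adjusted p = 0.0170 by limma). The call was lost with quantile normalisation (0.38, adjusted p = 0.0653), in a fit of the 5-week groups alone (adjusted p = 0.0812), and without replicate 2 of the knockout females or replicate 3 of the knockout males, where the highest adjusted p was 0.0561. Without replicate 4 of the knockout males the change was 0.76 (adjusted p = 0.000327 by limma). Within sex Myod1 was called only when replicate 4 of the knockout group was left out, at 0.85 in females (adjusted p = 0.00691) and 0.95 in males (adjusted p = 0.00484).

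Myog, which drives differentiation, rose 3.74-fold in mean TPM at 5 weeks. The WT females had 2.86, 3.78, 4.74 and 3.16 TPM and the WT males 5.09, 5.45, 4.94 and 7.33 TPM. Among Col6a2-/- mice the females had 19.0, 26.7, 13.3 and 6.66 TPM and the males 20.9, 17.8, 22.3 and 13.0 TPM. All knockout libraries lay above the WT libraries of their own sex. Over both sexes 7 of 8 lay above the highest WT library, and replicate 4 of the knockout females was the exception. Means were 4.67 ± 1.43 TPM in WT and 17.5 ± 6.30 TPM in Col6a2-/- (SD, n = 8), and the change was 1.65 (SE 0.190, adjusted p = 3.95e-07 by limma). It was called in every alternative fit, with changes from 1.46 to 1.83.

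Myf6 was the most abundant of the 7 genes in every group. At 5 weeks the WT females had 25.1, 30.4, 30.3 and 28.9 TPM and the WT males 37.2, 30.04, 34.6 and 30.5 TPM. In the knockout groups the females had 41.8, 43.8, 33.3 and 33.8 TPM and the males 44.1, 45.4, 43.3 and 38.4 TPM. Within each sex every knockout library lay above every WT library. The means were 30.9 ± 3.65 TPM in WT and 40.5 ± 4.75 TPM in Col6a2-/- (SD, n = 8), a ratio of 1.31, and the change was 0.38 (SE 0.0766, adjusted p = 0.000651 by limma). Median-of-ratios size factors lowered it to 0.18, which did not pass (adjusted p = 0.0530).

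Mymk encodes the membrane protein that both fusion partners need. At 5 weeks the WT females had 0.192, 0.163, 0.610 and 0.342 TPM and the WT males 0.956, 0.982, 0.912 and 0.877 TPM. The Col6a2-/- females had 5.47, 7.45, 2.997 and 2.21 TPM and the males 6.42, 4.66, 6.49 and 4.21 TPM. No knockout library overlapped a WT library. The mean rose 7.93-fold, from 0.629 ± 0.351 to 4.99 ± 1.81 TPM (SD, n = 8), and the change was 1.84 (SE 0.136, adjusted p = 5.87e-11 by limma). Every alternative fit called it, with changes from 1.68 to 2.90.

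Mymx encodes the micropeptide that completes fusion on the side of the myoblast. At 5 weeks the WT females had 0.0937, 0.116, 0.0534 and 0.0596 TPM and the WT males 0.111, 0.363, 0.239 and 0.0498 TPM. Values were 12.2, 16.8, 6.46 and 3.70 TPM in Col6a2-/- females and 19.3, 13.7, 16.4 and 14.7 TPM in the males. The 2 genotypes did not overlap, with the lowest knockout library at 3.70 TPM and the highest WT library at 0.363 TPM. The mean was 0.136 ± 0.110 TPM in WT and 12.9 ± 5.34 TPM in Col6a2-/- (SD, n = 8), a ratio of 95.2 that rests on a low WT level. The change was 3.49 (SE 0.162, adjusted p = 1.63e-15 by limma), and it was called in each alternative fit, with changes from 3.22 to 5.74.

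**Figure D2:**
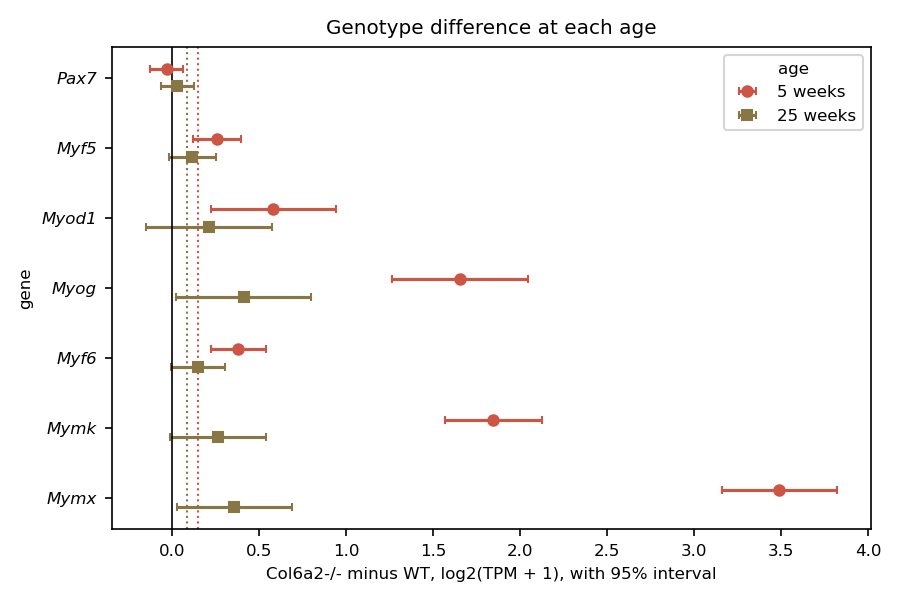
Difference between Col6a2-/- and WT in log2(TPM + 1) for each gene, with its 95% interval, at 5 weeks (circles) and 25 weeks (squares). Dotted lines mark the median change of all genes at each age; Myog, Mymk and Mymx stand far above it at 5 weeks only.

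In all, Mymk and Mymx separated the 8 knockout from the 8 WT libraries at 5 weeks, as 1.18% of the tested genes and 0.895% of every gene listed above 0 in any library did in that direction. Both genes met the filter through the libraries in which they are high, so the first of these shares is not independent of their pattern. Myog, Myf6, Mymk and Mymx separated the genotypes within females, where 8.53% of tested genes (5.55% of every gene) did, and with Myf5 they did so within males, where 9.32% (5.66%) did. Those 4 genes separated them in both sexes at once, as 3.6% (2.13%) did. In the comparison of 5-week females alone, 4 of the 7 genes were called higher (Myog, Myf6, Mymk and Mymx), beside 12.9% of all genes in either direction. In 5-week males 5 were called higher, with Myf5 in addition, beside 5.03% of all genes. Of those called genes 95.6% were higher in females and 90.4% in males, but 50.7% and 52.0% with median-of-ratios size factors. The Myf5 call in males (0.39, adjusted p = 0.00999 by limma) was lost with quantile normalisation (0.26, adjusted p = 0.0541), in a fit of the 5-week males alone (adjusted p = 0.0709), and without replicate 3 of the WT males or replicate 1 of the knockout males (highest adjusted p 0.0609). The Myf6 call in males was marginal (0.36, adjusted p = 0.0458), and it was lost in 17 of 32 fits without 1 library. It was also lost with median-of-ratios size factors (0.20), FPKM (0.32), a pseudocount of 0.1 (0.37), the replicate block and the fit of the compared groups alone. The Myf6 call in females (0.40, adjusted p = 0.0178) was lost with median-of-ratios size factors (0.15, adjusted p = 0.299), rescaling without mitochondrial and Rn7s genes (0.29, adjusted p = 0.115), the fit of the compared groups alone (adjusted p = 0.234), and without replicate 1 of the WT females or replicate 1 or 2 of the knockout females (highest adjusted p 0.101). The difference between the sexes in the genotype effect was tested as an average over both ages, and not at 5 weeks alone. No member passed, beside 0.0156% of all genes. In that test 206 of the 12817 genes had an unadjusted p under 0.05, and the limma test without the filter also gave no member. Averaged over both ages, the genotype effect in males minus that in females was 0.38 for Mymx, with a 95% interval of -0.08 to 0.85. For Myog it was -0.06 with an interval of -0.61 to 0.49. At 5 weeks alone the genotype change of Mymx was 3.14 in females and 3.84 in males, and that of Myog 1.78 and 1.53.

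The relation between the 2 fusion genes differed between the genotypes at 5 weeks, which follows from the larger rise of Mymx given above. In the 5-week knockout libraries there were 1.67 to 3.49 Mymx transcripts per Mymk transcript, with a median of 2.39. In the WT libraries of that age the ratio was 0.0568 to 0.715, with a median of 0.218, so the 2 ranges did not overlap. The WT ratios rest on low levels, with Mymx at 0.0498 to 0.363 TPM and Mymk at 0.163 to 0.982 TPM. The share of other gene pairs whose ratios separate in this way was not taken. The ratios at 25 weeks are not given, since several WT libraries list one or both genes at 0.

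Replicate 4 of the 5-week Col6a2-/- females held the lowest value of its group for all members but Myf6, and replicate 4 of the males for all but Myf5 and Mymx. The order of the 4 knockout females was the same for Myog, Mymk and Mymx, with replicate 2 highest, then replicates 1, 3 and 4. The summed TPM of 8 macrophage markers followed that order too, with 189, 289.6, 154 and 85.8 in replicates 1 to 4. So did that of 4 endothelial markers, with 65.0, 73.6, 57.2 and 47.3. The fibroblast, tenocyte and erythrocyte sums of these females were also highest in replicate 2 and lowest in replicate 4. Other sums went differently. The mature fibre sum was lowest in replicate 3, and the Schwann cell sum was highest in replicate 1. The adipocyte sum was highest in replicate 3 and lowest in replicate 2. In the males the macrophage sum was 286, 226, 210.0 and 191, and the endothelial sum 81.6, 80.8, 89.0 and 62.0. Relative depth was highest in replicate 4 of both sexes, at 13.69 gigabases in females and 11.4 in males, but replicate 3 of the females was nearly as deep at 13.64. What sets these libraries apart was not tested. Without replicate 4 of the females, the 5-week changes of Myog, Mymk and Mymx were 1.82, 1.96 and 3.66.

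At 25 weeks 0 of the 7 genes were called by limma on the log2(TPM + 1) scale, which compresses differences between levels under 1 TPM, beside 4.7% of all genes with the filter and 1.04% without it, where the count was also 0. Of the 603 genes called, 573 were higher, whereas median-of-ratios size factors gave 1383 genes with 51.0% higher. In that comparison 2469 genes had an unadjusted p under 0.05, among them Myog and Mymx. Myog had 1.36, 1.51, 2.47 and 2.48 TPM in WT females and 1.90, 2.31, 2.53 and 4.48 TPM in Col6a2-/- females. In males it had 0.682, 0.721, 0.861 and 1.16 TPM in WT and 1.51, 0.761, 2.78 and 1.60 TPM in Col6a2-/-. The genotypes overlapped in both sexes, and the change was 0.41 with a 95% interval of 0.02 to 0.80 (adjusted p = 0.234).

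Mymk at 25 weeks was listed at 0 in all 4 WT males and at 0.0683, 0, 0.0747 and 0.162 TPM in WT females. The Col6a2-/- females had 0.0919, 0.137, 0.0479 and 0.600 TPM and the males 0.227, 0.104, 0.466 and 0.371 TPM. No knockout library was listed at 0, and among males all knockout values lay above WT. Mymx was listed at 0.0392, 0, 0.164 and 0 TPM in WT females and at 0, 0.0538, 0 and 0.0773 TPM in WT males. It had 0.241, 0.237, 0.279 and 0.488 TPM in Col6a2-/- females and 0.418, 0.104, 0.830 and 0.174 TPM in males. For Mymx, 7 of 8 knockout libraries exceeded the highest WT library, and within each sex every knockout value lay above every WT value. The share of all genes with that separation within sex at 25 weeks was not taken. Full separation of all 8 from 8 was seen for 0.663% of tested genes, 0.316% of every gene and no member. No fold is given against groups that hold values of 0. The changes of 0.26 for Mymk (adjusted p = 0.293 by limma) and 0.35 for Mymx (adjusted p = 0.223) did not pass with a pseudocount of 1. With a pseudocount of 0.1, which gives low levels more weight, they were 1.26 (adjusted p = 0.00853) and 1.59 (adjusted p = 0.00222), and a fit of the 25-week groups alone also called Mymx (adjusted p = 0.0496).

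Among the other members at 25 weeks, Myf5 changed by 0.11 (interval -0.02 to 0.25), Myod1 by 0.21 (-0.15 to 0.57) and Myf6 by 0.15 (-0.01 to 0.30), none of which passed. Taken by sex, 0 members were called in 25-week females, beside 0.0078% of all genes, and 0 in 25-week males, beside 3.03%. In those limma tests 621 genes in females and 2532 in males had an unadjusted p under 0.05. A pseudocount of 0.1 called Mymk (1.87, adjusted p = 0.00855) and Mymx (1.66, adjusted p = 0.0236) in the males.

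The genotype difference itself shrank between the 2 ages for Myog, Mymk and Mymx. The interaction of genotype and age was -3.13 for Mymx (SE 0.228, adjusted p = 2.42e-10 by limma), -1.58 for Mymk (SE 0.192, adjusted p = 6.27e-06) and -1.24 for Myog (SE 0.269, adjusted p = 0.0218). These were the 3 members called, all lower, beside 0.492% of all genes with the filter and 0.349% without it, where the same 3 were called. The Myog interaction did not pass with a pseudocount of 0.5 (adjusted p = 0.0564) or 0.1 (adjusted p = 0.169), and the Mymk interaction did not pass with 0.1 (adjusted p = 0.0867). Myf6 (-0.23), Myod1 (-0.37), Myf5 (-0.14) and Pax7 (0.06) were not called.

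Most of these transcripts were lower at the older age. In WT muscle 4 of the 7 genes were called lower at 25 than at 5 weeks and none higher, beside 19.8% of all genes with the filter and 7.79% without it, where the count was also 4. Pax7 fell from 0.465 ± 0.135 to 0.178 ± 0.0617 TPM (SD, n = 8), a change of -0.31 (SE 0.0466, adjusted p = 8.71e-05 by limma without the filter). Myf5 fell from 0.806 ± 0.171 to 0.440 ± 0.0959 TPM (-0.32, adjusted p = 0.000857). Myog fell from 4.67 ± 1.43 to 1.41 ± 0.721 TPM, a change of -1.25 (adjusted p = 2.42e-05), and Mymk changed by -0.62 (adjusted p = 0.00156). The 5-week and 25-week libraries of WT mice did not overlap for Pax7, Myog and Mymk, as 2.3% of tested genes and 1.16% of every gene showed in the same direction. Myod1 moved from 2.27 ± 0.449 to 2.68 ± 0.249 TPM, and neither it nor Myf6 (30.9 ± 3.65 and 27.4 ± 2.16 TPM) passed. Mymx, already low in WT muscle at 5 weeks, did not pass. Of all genes called for age in WT, 22.6% were higher at 25 weeks with TPM and 51.0% with median-of-ratios size factors, and in Col6a2-/- muscle 15.8% and 51.6%, but no scaling changed a member's call for age.

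In Col6a2-/- muscle 6 of the 7 genes were called lower at 25 weeks, all but Myod1, beside 34.2% of all genes with the filter and 16.8% without it, where the same count was obtained. The comparisons of age share their libraries with those of genotype. Mymx fell from 12.9 ± 5.34 to 0.346 ± 0.232 TPM (SD, n = 8), a ratio of 37.3 and a change of -3.25 (SE 0.162, adjusted p = 1.33e-14 by limma). Mymk fell from 4.99 ± 1.81 to 0.256 ± 0.202 TPM, a ratio of 19.5 and a change of -2.20 (adjusted p = 1.24e-12). Myog fell from 17.5 ± 6.30 to 2.23 ± 1.11 TPM, a ratio of 7.81 and a change of -2.49 (adjusted p = 1.07e-10). For these 3 genes all 8 younger knockout libraries lay above all 8 older ones, as 1.88% of tested genes and 1.16% of every gene showed. Pax7 (-0.25, adjusted p = 0.000431), Myf5 (-0.47, adjusted p = 4.38e-06) and Myf6 (-0.40, adjusted p = 0.000236) fell by less. Myod1 changed by -0.19 (interval -0.55 to 0.17) and did not pass, except when replicate 4 of the 5-week knockout males was left out (-0.37, adjusted p = 0.0428).

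Set in order of their means, the 8 groups of Myog ran from 18.5 ± 4.15 TPM in 5-week knockout males and 16.4 ± 8.52 TPM in 5-week knockout females to 5.70 ± 1.10 TPM in 5-week WT males and 3.64 ± 0.830 TPM in 5-week WT females. Below them came the 25-week knockout females, WT females, knockout males and WT males. Of the neighbours in that order, the 5-week WT males and females did not overlap, and every other neighbouring pair did. For Mymk the order was 5-week knockout males, 5-week knockout females, 5-week WT males, 5-week WT females, 25-week knockout males, 25-week knockout females, 25-week WT females and 25-week WT males. There the 5-week WT males overlapped neither the knockout females above them nor the WT females below them, and the other neighbours overlapped or shared a value of 0. For Mymx the 5-week knockout males and females again came first and overlapped each other. They were followed, with no overlap, by the 25-week knockout males and females, the 5-week WT males and females and the 25-week WT females and males, and each of those overlapped its neighbour.

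Sex averaged over ages and genotypes changed no member by limma, beside 3.05% of all genes called. In that test 1689 genes had an unadjusted p under 0.05, among them Mymk (0.21, adjusted p = 0.321) and Mymx (0.25, adjusted p = 0.344), and a fit without the filter gave 0 members as well. In WT mice the order of the sexes for Myog turned with age. At 5 weeks the 4 males lay above the 4 females, and at 25 weeks the 4 males lay below them, with no overlap at either age, a pattern noticed in the data that 2.75% of tested genes shared. The interaction of sex and age in WT was -1.19 (SE 0.381) with an unadjusted p of 0.00407 and an adjusted p of 0.0736 by limma, and no member was called, beside 2.53% of all genes. In that test, which was added after the values of Myog had been seen, 3440 genes had an unadjusted p under 0.05, and the median of all genes was -0.27. For Mymk the WT males had 0.877 to 0.982 TPM and the females 0.163 to 0.610 TPM at 5 weeks. At 25 weeks all 4 males and 1 of the 4 females were listed at 0, and the other females had 0.0683 to 0.162 TPM (interaction -0.66, adjusted p = 0.131). With a pseudocount of 0.1 both interactions were called, at -1.72 for Myog (adjusted p = 0.0348) and -2.12 for Mymk (adjusted p = 0.0340). The Myog interaction also passed without replicate 2 or replicate 4 of the 5-week knockout females (lowest adjusted p 0.0219).

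The balance of the 4 myogenic regulatory factors shifted in the young knockout muscle. Of their summed TPM, Myog made up 11.9% ± 2.81 in 5-week WT and 26.7% ± 5.56 in 5-week Col6a2-/- libraries (SD, n = 8), with ranges of 9.06% to 17.7% and 15.6% to 34.3%. The ranges overlapped only through replicate 4 of the knockout females at 15.6% and replicate 4 of the WT males at 17.7%. Myf6 made up 80.1% ± 3.37 and 65.0% ± 7.25. Myod1 had a share of 5.91% ± 1.10 in WT and 6.45% ± 2.40 in knockout muscle, and Myf5 one of 2.10% ± 0.430 and 1.86% ± 0.391. At 25 weeks the Myog share was 4.36% ± 2.12 in WT and 5.96% ± 2.47 in Col6a2-/-, and the Myf6 share 85.8% ± 2.35 and 83.5% ± 2.42.

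**Figure D3:**
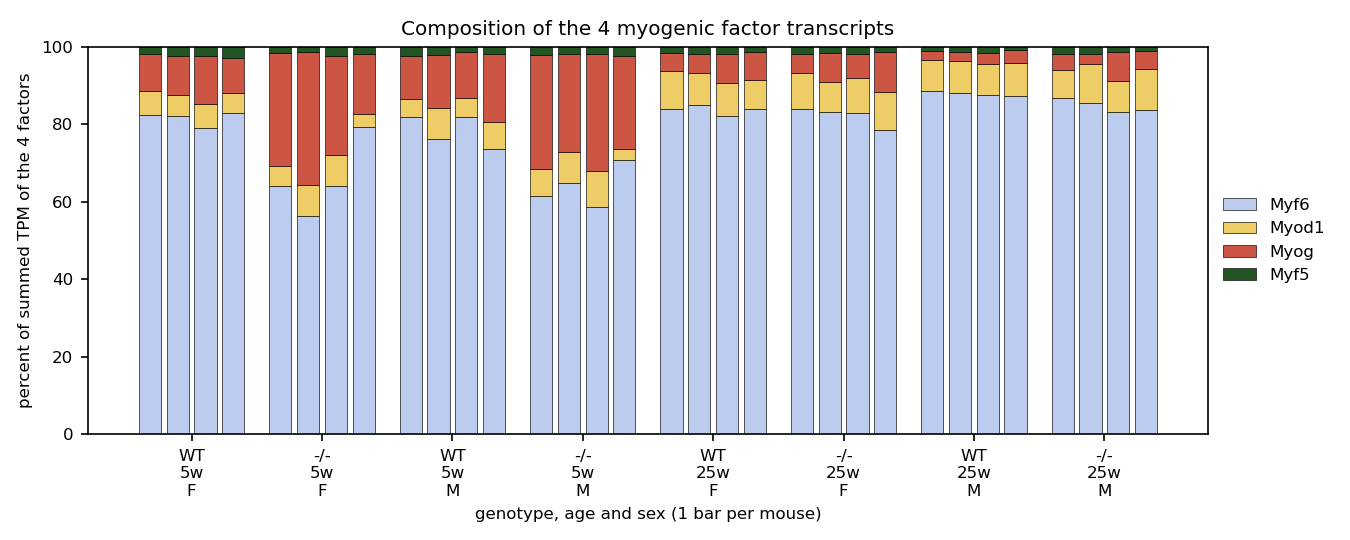
Share of Myf6, Myod1, Myog and Myf5 in the summed TPM of the 4 factors, as percent, with 1 stacked bar per mouse ordered by replicate within each group. The Myog part has a mean of 26.7% in the 8 Col6a2-/- libraries at 5 weeks, where 7 of 8 stand above every WT library of that age, and is narrow in WT males at 25 weeks.

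Genes that work beside the 7 members were taken from 6 lists of 105 genes. Lists are described by their counts and their medians, set against 25.4% of all genes called at 5 weeks and an all-gene median of 0.15. Of 18 satellite cell genes tested, 11 were called higher at 5 weeks and none lower, with a list median of 0.38. The syndecan gene Sdc3 went from 3.20 ± 0.788 to 5.68 ± 1.38 TPM (SD, n = 8), a change of 0.66 (adjusted p = 2.96e-05 by limma). Megf10, a surface receptor of satellite cells, changed by 0.63, the chemokine receptor Cxcr4 by 0.61 and the adhesion molecule Vcam1 by 0.47. Pax7 itself, which marks satellite cells, did not pass at 5 weeks (-0.03, adjusted p = 0.722 by limma without the filter). In which cells the list genes rose was not tested. In the alternative fits the count of higher genes in this list was 7 to 11, and without single libraries 7 to 14. At 25 weeks Cd34 (0.51) and Vcam1 (0.36) were called higher, and the other 16 were not called, beside 4.7% of all genes called. That count was 0 to 3 in the alternative fits and 0 to 4 without single libraries. It was 0 without replicate 3 of the WT males, replicate 1 of the knockout females or replicate 1 of the knockout males, all at 25 weeks. With median-of-ratios or quantile values Cdh15, named after its values were seen, was called lower.

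Of 21 partners and regulators of the myogenic factors, 6 were called higher and none lower at 5 weeks, a share near that of all genes, with a list median of 0.10. Cdkn1a, the cell cycle inhibitor p21 that accompanies exit from the cycle, rose from 2.70 ± 1.24 to 13.7 ± 5.02 TPM (SD, n = 8), a change of 1.98 (adjusted p = 1.10e-07 by limma). Cdkn1c, which encodes the related inhibitor p57, changed by 0.97, the histone deacetylase gene Hdac4 by 0.45 and the repressor Msc by 0.27. With median-of-ratios size factors or quantile normalisation only 3 genes of this list were called higher, and Eya1, Eya4, Hdac9 and Six4, named here after their values were seen, were called lower. None of the list was called at 25 weeks with TPM, but Six4 was called lower with those same scalings. The genotype difference of Cdkn1a was called smaller at the older age (-1.53, adjusted p = 0.00801), and with median-of-ratios size factors, quantile normalisation, rescaling without mitochondrial and Rn7s genes, or without some single libraries, that of Cdkn1c was called smaller as well.

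Of 22 genes for adhesion and fusion cofactors, 12 were called higher and 1 lower at 5 weeks, with a list median of 0.33. The alternative fits gave 7 to 13 higher and 0 to 2 lower, with Tmem182, named after its values were seen, joining the lower genes under median-of-ratios and quantile values. Without single libraries 8 (replicate 2 of the knockout females left out) to 15 (replicate 4 of the knockout males left out) were higher. Ptgfrn rose from 6.08 ± 1.75 to 12.2 ± 4.39 TPM (SD, n = 8), a change of 0.86 (adjusted p = 0.000129 by limma). The annexin genes Anxa1 and Anxa5, whose products bind membrane phospholipid, changed by 0.79 and 0.67, and Myof, which encodes the ferlin myoferlin, by 0.64. Stab2, a receptor for phosphatidylserine, was the gene called lower (-0.25, adjusted p = 0.0367), a call that was lost without the filter, in the fit of the 5-week groups alone and in several fits without 1 library. None of the 22 was called for the interaction of genotype and age, beside 0.492% of all genes. At 25 weeks 6 were called higher, led by Anxa1 (0.77, adjusted p = 0.00200 by limma) and Cd9 (0.65), and Stab2 lower (-0.34), beside 4.7% of all genes. The alternative fits gave 4 to 8 higher. The Stab2 call at 25 weeks was lost with FPKM and without replicate 4 of the 25-week WT females.

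Of 10 developmental sarcomere and young-fibre genes, 5 were called higher at 5 weeks and none lower, with a list median of 0.48. The embryonic light chain Myl4 rose from 2.66 ± 0.226 to 37.1 ± 10.8 TPM (SD, n = 8), a change of 3.32 (adjusted p = 3.20e-15 by limma). The embryonic heavy chain Myh3 rose from 1.47 ± 0.292 to 12.3 ± 3.91 TPM, a change of 2.37. The troponin Tnnt2 changed by 1.72 and the adhesion molecule Ncam1 by 1.28. With median-of-ratios size factors 1 gene of the list was called lower at 5 weeks and again at 25 weeks, Myh8, named here after its values were seen. Myl4 (0.77), Myh3 (0.74) and Tnnt2 (0.48) were called higher at 25 weeks, beside 4.7% of all genes, and the alternative fits gave 2 to 4. The difference shrank with age for each (-2.55, -1.63 and -1.24), beside 0.492% of all genes called for that interaction.

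Of 10 denervation-responsive genes, 9 were called higher at 5 weeks and none lower, with a list median of 1.09, and 8 to 10 were called higher in the alternative fits. Chrng, the fetal subunit of the acetylcholine receptor, had a mean of 0.0538 TPM in WT and reached 1.96 ± 0.573 TPM in Col6a2-/- (SD, n = 8), a change of 1.46 (adjusted p = 2.20e-12 by limma). Its partner Chrnd changed by 1.21, the transcription factor Runx1 by 1.30 and Gadd45a by 1.65. Only Runx1 was called at 25 weeks (0.62, adjusted p = 0.00910 by limma), beside 4.7% of all genes. The difference was called smaller at 25 weeks for 5 of the 10, beside 0.492% of all genes. That count was 5 to 7 in the alternative fits and 5 to 7 without single libraries. Among the 5 were Chrng (-1.34), Chrnd (-1.13), Fbxo32 (-1.13) and Gadd45a (-1.24).

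Of 11 cell cycle genes, 9 were called higher at 5 weeks, with a list median of 0.52, and none at 25 weeks (0 to 1 in the alternative fits). Levels were low, with Ccna2 at 1.29 ± 1.13 TPM in WT and 2.61 ± 1.63 TPM in Col6a2-/- (SD, n = 8), a change of 0.68 (adjusted p = 0.00386 by limma). Ccnb2 changed by 0.52, Cdc20 by 0.52 and Rrm2 by 0.50. The number called higher was 5 to 10 in the alternative fits and 7 to 11 without single libraries. In 5-week females 8 of the 11 were called higher in Col6a2-/-, beside 12.9% of all genes called, and in 5-week males 1, beside 5.03%. None was called for the difference between the sexes in the genotype effect averaged over both ages. That difference was not tested at 5 weeks alone. In the comparison of the sexes over all groups 8 of the 11 were called higher in males, beside 3.05% of all genes. For the interaction of sex and age in WT 7 of the 11 were called lower, beside 2.53%. With age, 10 of the 11 fell in WT, beside 19.8% of all genes called, and all 11 in Col6a2-/- muscle, beside 34.2%. In a fit of the WT groups alone 5 were called lower.

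**Figure D4:**
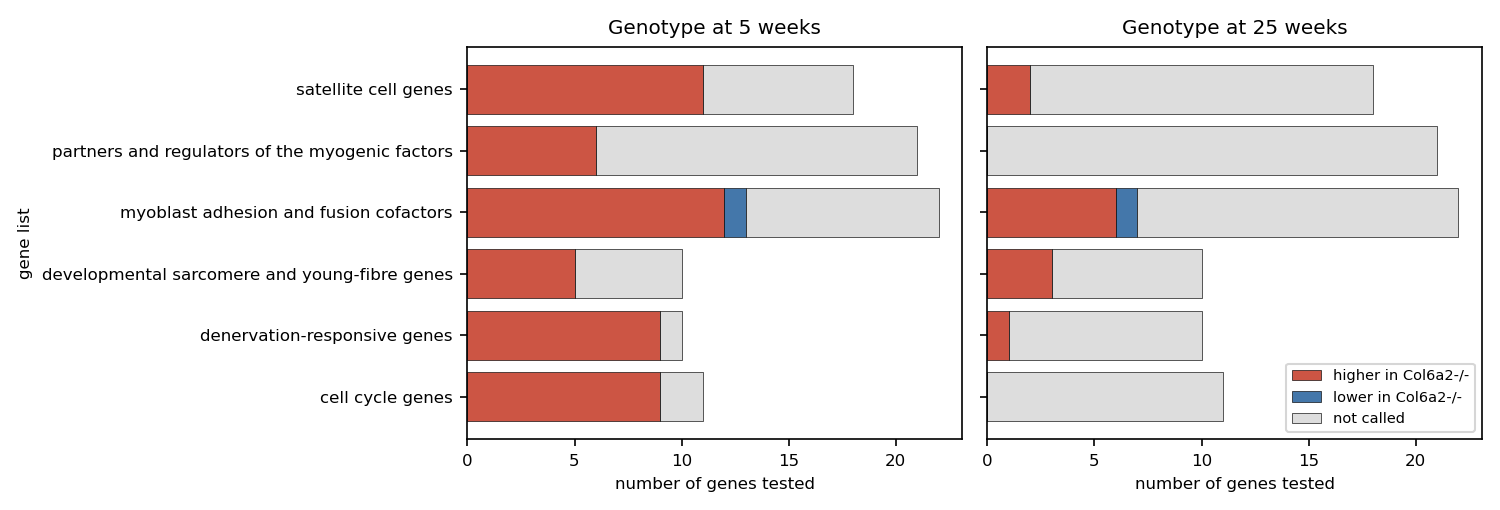
Number of tested genes in each of 6 lists that were called higher (red), called lower (blue) or not called (grey) in Col6a2-/- muscle at 5 weeks (left) and 25 weeks (right). At 5 weeks 9 of 10 denervation-responsive genes and 9 of 11 cell cycle genes were called higher, beside 25.4% of all genes called. At 25 weeks 1 and 0 were, beside 4.7%.

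Markers of some other cell types moved with the same contrast, set here against 25.4% of all genes called at 5 weeks and 4.7% at 25 weeks. All 8 macrophage markers were called higher in 5-week Col6a2-/- muscle, and their summed level was 47.9 to 82.6 TPM in WT and 85.8 to 289.6 TPM in Col6a2-/- libraries, with no overlap. With median-of-ratios or quantile values 7 of them were called. At 25 weeks 6 of 8 were called higher (3 to 6 in the alternative fits and 3 to 6 without single libraries), beside 4.7% of all genes. Their sums were then 34.2 to 101 TPM in WT and 91.4 to 174 TPM in Col6a2-/-, while 0 members were called with TPM and 0 to 2 in the alternative fits. Of 6 fibroblast and fibro-adipogenic progenitor markers 3 were called higher at 5 weeks, and 1 with median-of-ratios size factors, with sums of 392 to 923 TPM in WT and 328 to 949 TPM in Col6a2-/-. At 25 weeks 2 of the 6 were called higher, also in each alternative fit and with each library left out. Their sums were then 226 to 416 TPM in WT and 340 to 538 TPM in Col6a2-/-. Of 4 endothelial markers 3 were called higher at 5 weeks, but 0 with median-of-ratios, 1 with quantile values and 1 to 3 without single libraries. Their sums at 5 weeks were 41.2 to 77.7 TPM in WT and 47.3 to 89.0 TPM in Col6a2-/-, and none was called at 25 weeks. Of 9 mature fibre markers 3 were called lower at 5 weeks, but 6 with median-of-ratios and 1 with quantile values, with sums of 32467 to 42542 TPM in WT and 25918 to 40505 TPM in Col6a2-/-. At 25 weeks none of the 9 was called with TPM, but 4 were called lower with median-of-ratios and 1 with quantile values. No adipocyte, Schwann cell, tenocyte or erythrocyte marker was called at either age, and no marker of any list was at 0 in any library. With age, 7 of 8 macrophage, 3 of 4 endothelial, 3 of 3 tested Schwann cell, 2 of 3 tenocyte, 2 of 9 mature fibre and 1 of 6 fibroblast markers were called lower in Col6a2-/- muscle at 25 weeks, beside 34.2% of all genes called, so that the mature fibre and fibroblast counts lie at or below the background. In WT muscle the counts were 1, 2, 1, 2, 2 and 1 in the same order, beside 19.8% of all genes. With TPM, the filter and all libraries, no marker was called higher with age in either genotype. Median-of-ratios size factors called 1 mature fibre and 1 fibroblast marker higher in Col6a2-/- muscle. Without replicate 4 of the 25-week WT males, 2 mature fibre markers were called higher in WT and 1 in Col6a2-/- muscle. The part of these cell types in the member results, by genotype or by age, was not tested.

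The genes whose 8 group means lay closest to those of a member were sought among the 1623 genes with a range of at least 1 on the log2(TPM + 1) scale. Myf5, Myod1 and Myf6, with ranges of 0.77, 0.80 and 0.66, and Pax7 did not enter. Pearson's r over the 8 means is a description here, since the means share their libraries. For Myog the closest were Zim1 (r = 0.991), Serinc5 (r = 0.987) and Megf10 (r = 0.986). For Mymk they were Clec4n (r = 0.995), Igfbp2 (r = 0.992) and Ankrd10 (r = 0.991). For Mymx they were Mfsd7a (r = 0.999), Plekhh1 (r = 0.999) and Krt8 (r = 0.998). Krt8 was listed at 0 in all 5-week WT libraries and reached 1.88 ± 0.763 TPM in the knockout libraries of that age (SD, n = 8). Between members, r was 0.966 for Myog with Mymk, 0.966 for Mymk with Mymx and 0.894 for Myog with Mymx.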

How the data were processed

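RNA-seq was made from quadriceps cryosections of 32 mice, 4 in each of 8 groups, with paired-end TruSeq libraries, per the labels' protocols. Replicates are separate mice. The authors deposited a table per library with coverage, FPKM and TPM for each gene, per the file headers. FastQC, MultiQC, Trimmomatic, HISAT2, SAMtools and StringTie are named in the submitters' processing notes, and their settings and versions are not given in the sources used here. No read counts were used, so depth was inferred only on a relative scale, from coverage divided by FPKM.

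TPM values were summed over table entries that share a gene ID. The test was limma 3.58.1 (R 4.3.3) on log2(TPM + 1), with 1 mean per group, a spread shared over the 8 groups and empirical Bayes moderation with a trend on mean expression. Genes had to reach 1 TPM in at least 4 libraries, and Pax7, which did not, was taken from a fit without that filter. P-values were adjusted over all genes tested in a comparison (Benjamini-Hochberg, threshold 0.05), for 11 planned comparisons and 1 added after seeing the data. The main fit, with the filter, was tested on simulated data for the genotype comparison of the younger mice only. The fit without the filter and the alternative fits were not tested in this way. Descriptions used Python 3.11.15 with pandas 2.3.3 and numpy 2.4.6.

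The 7 genes, the lists and the tests were chosen with earlier results of these data known, so the lists are no independent evidence. Of each list, at most 4 called genes per comparison are named, those with the smallest adjusted p. For a member whose group means range over at least 1, the 3 most similar genes are named. The alternatives were other pseudocounts, filters and scalings, FPKM, the replicate number as a block, separate fits, and each library left out in turn.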

Additional observations from a re-analysis of the deposited data

Results flagged for a closer look

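With 4 libraries in each of 8 groups, 56 combinations of a gene and a group were examined for a library that stood far from the other 3, and 5 were found, where chance gives about 1 in 20. Pax7 had a low value of 0.257 TPM in a 5-week Col6a2-/- male. Myf6 had a high value of 31.8 TPM in a 25-week WT male and a low value of 25.9 TPM in a 25-week Col6a2-/- female. Mymk reached 0.600 TPM and Mymx 0.488 TPM in the same 25-week Col6a2-/- female, replicate 4, which also held the highest Myog value of that group, 4.48 TPM.

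The genotype difference was not the same at both ages for 3 genes, by the interaction tested in limma across all genes. It was smaller at 25 weeks by -1.24 for Myog, -1.58 for Mymk and -3.13 for Mymx on the log2(TPM + 1) scale. The Myog interaction did not pass with a pseudocount of 0.5 or 0.1, and the Mymk interaction did not pass with 0.1.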

How the results depend on the processing

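The replicate block left the members called at 6 for the 5-week genotype comparison and 4 for 5-week males, where Myf6 no longer passed (0.36, adjusted p = 0.0601 by limma), and changed no other member's call. Same-numbered libraries had correlations of -0.34 to 0.349 over 112 pairs (median 0.032), 35 of them over 0.1, and of 336 differently numbered pairs (median -0.013) 65 were over 0.1. Since not every same-numbered pair was over 0.1, the numbers were not read as a pairing. That rule cannot detect a link shared by only some of the pairs, and such a link was not tested beyond the replicate block. Members called at 5 weeks numbered 4 to 6 over the alternatives and 5 to 6 without single libraries. Of 3500 values of single members, 3384 kept their direction and side of the threshold, 42 lost a call and 15 gained one, and 59 turned in sign, all of changes called in neither fit.

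With a pseudocount of 0.1, 2 members were called at 25 weeks, 1 for genotype by age, 2 in 25-week males and 2 for sex by age in WT. All genes called were then 2 in 25-week females, 736 in 25-week males and 679 for sex by age in WT, and Mymk by genotype and sex became 0.11 and Myf5 by sex -0.035. A pseudocount of 0.5 gave -0.0028 for Myf5 by sex and 2 genes in 25-week females. Without the filter, all genes called were 343 at 25 weeks, 115 for genotype by age, 5 for genotype by sex, 4 in 25-week females, 133 in 25-week males and 88 for sex by age in WT. A minimum of 0.1 TPM gave 130 for genotype by age and 4 in 25-week females.

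Median-of-ratios size factors gave 1383 genes at 25 weeks, 114 for genotype by age, 793 for sex, 1063 in 5-week males, 13 in 25-week females, 858 in 25-week males and 211 for sex by age in WT. Signs turned for Myf5 by sex (-0.016), Pax7 in 5-week females (-0.056) and 25-week males (-0.0035), and Myf6 in 25-week males (-0.15). For sex by age in WT they turned for Myf5 (0.041), Myod1 (0.058) and Myf6 (0.25). Rescaling without mitochondrial and Rn7s genes gave 835 genes in 5-week females and 1346 in 5-week males, 3 and 211 in 25-week females and males, and 59 for sex by age in WT. Signs turned for genotype by sex in Myod1 (0.012), Myog (0.015) and Mymk (0.049), for Pax7 in 5-week females (-0.012), Myf6 in 25-week males (-0.056) and Myf6 for sex by age in WT (0.12).

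Quantile normalisation gave 140 genes for genotype by age, 817 for sex, 1106 in 5-week males, 7 in 25-week females and 165 for sex by age in WT. Signs turned for Pax7 at 25 weeks (-0.021), in 5-week females (-0.11), 25-week females (-0.0016) and 25-week males (-0.040), and for Myf5 by sex (-0.021) and in 5-week females (-0.068). They also turned in 25-week males for Myod1 (-0.025) and Myf6 (-0.014), and for sex by age in WT for Pax7 (0.013), Myf5 (0.12), Myod1 (0.093) and Myf6 (0.13). FPKM gave -0.010 for Myf5 by sex and 2 genes in 25-week females, as did the replicate block for that count. Fits of the compared groups alone gave 1878 genes at 5 weeks, 1087 at 25 weeks, 108 in 5-week females, 7 in 25-week females and 589 in 25-week males, with 1 member called at 25 weeks and 3 in 5-week males.

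The share of called genes that were higher also moved with scaling. At 25 weeks it was 51.0% with median-of-ratios and 58.8% with quantile values, from nearly all (573 of 603) with TPM. For age it was 22.6% in WT and 15.8% in Col6a2-/-, and with median-of-ratios 51.0% and 51.6%. The causes were not tested.

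Leaving out 1 library at a time gave 270 genes (without replicate 1 of the 25-week knockout males) to 983 (without replicate 2 of the 5-week knockout females) at 25 weeks. It gave 49 (5-week WT female 1) to 229 (5-week knockout female 4) for genotype by age, 327 to 693 for sex, 455 (5-week knockout female 2) to 3865 (5-week knockout female 4) in 5-week females, 313 (5-week knockout male 1) to 1003 (5-week knockout male 4) in 5-week males, 1 to 5 in 25-week females, 55 (25-week knockout male 1) to 816 (5-week knockout female 2) in 25-week males and 50 (5-week WT male 1) to 1468 (5-week knockout female 2) for sex by age in WT. Members called ranged from 0 to 2 for sex, where Mymk and Mymx passed without 5-week knockout female 2, from 3 (5-week WT male 3) to 6 (5-week knockout male 4) in 5-week males and from 0 to 1 for sex by age in WT. Changes spanned 0 for Pax7 at 5 weeks (-0.060 to 0.0007), in 5-week females (-0.0098 to 0.045) and 25-week females (-0.0035 to 0.069), for Myf5 by sex (-0.012 to 0.020), and by genotype and sex for Myod1 (-0.17 to 0.15), Myog (-0.23 to 0.078) and Mymk (-0.14 to 0.095).

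The tables give no read counts, so counting error at levels under 1 TPM, where Pax7 lies throughout, most Myf5 values lie, and Mymk and Mymx lie in WT at both ages and in Col6a2-/- at 25 weeks, could not be given. This includes the 5-week WT levels behind the ratios of 7.93 and 95.2 and the ratio of Mymx to Mymk. A value of 0 is only a listing. The size of those changes depends on the pseudocount. Mymk and Mymx met the filter through the libraries in which they are high.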
